A study of Mus musculus with 36 samples.

Results

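Snx20 and Nod2 lie head to head on mouse chromosome 8, and both had more reads in Zfp266 knockout cells early in reprogramming. The question here was whether the genes around them changed too, and at which stages. The 6 genes followed, of 21442 in the count table, were the pair itself and 4 neighbours on the same chromosome, Cyld, Nkd1, Brd7 and Sall1, matched to the table by gene name. The KO over WT difference of Snx20 and Nod2 on days 3 and 5 chose the locus: the pair was selected on those values, which are therefore given as a description with no test. The neighbours and all other stages were tested.

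RNA-seq was done on 36 libraries, 3 in each of 12 groups, formed by 6 stages and 2 genotypes. Mouse embryonic fibroblasts (MEFs) were taken from E12.5 chimeric embryos made by morula aggregation and were labelled strain 129. The host embryos came from B6CBAF1 females. The MEFs carried Cas9 and a doxycycline-inducible cassette of the reprogramming factors OCT4, SOX2, KLF4 and c-MYC in both genotypes. KO MEFs received an sgRNA against Zfp266, which encodes a KRAB zinc-finger protein, and WT MEFs received a non-targeting sgRNA, both by lentivirus. MEFs were collected 96 h after transduction from separate cultures kept in MEF medium, so they were not the reprogramming cultures before induction. Reprogramming cells were collected at days 3, 5 and 7 (D3, D5 and D7) of 300 ng/ml doxycycline after sorting for cassette expression. Their medium also held LIF and vitamin C. They had been seeded with a large excess of other, wild-type MEFs of strain 129, a mix not described for the MEF samples. The study gives only a lower bound for the purity after sorting. MEFs, D3, D5 and D7 were thus edited pools and not clones. Induced pluripotent stem cells (iPS) were single clones lifted at D15 and kept without doxycycline, with 3 clones a genotype. Embryonic stem cells (ESC) comprised 3 KO clones and 3 libraries of the 1 parental line, Clone J. The KO clones were grown from single Clone J cells transfected with a Zfp266 sgRNA plasmid. No non-targeting sgRNA is described for the parental line, so in ESC transfection and cloning cannot be told apart from genotype. The ES line behind Clone J has a 129 background. The study calls the samples of a reprogramming group independent, without saying whether they came from separate embryos or cultures. The p-values measure the spread between libraries within groups. For each gene all 36 libraries shared 1 estimate of that spread, the iPS clones included, so it is not the spread of the compared samples alone. A fit of only the compared groups, given where it changed a call, takes the spread from those libraries alone.

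Snx20 encodes a sorting nexin, a lipid-binding trafficking protein known from leukocytes. Nod2 encodes a cytosolic sensor of bacterial cell-wall fragments, which signals through the kinase RIPK2 to NF-kB, and Cyld encodes a deubiquitinase that trims the ubiquitin chains of that pathway. Nkd1 encodes an inhibitor of Wnt signalling, Brd7 a bromodomain subunit of the PBAF chromatin remodelling complex, and Sall1 a zinc-finger transcription factor that is abundant in pluripotent cells.

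In GRCm38 coordinates with the GENCODE vM21 annotation, the order along chromosome 8 was Brd7 (88331039 to 88362194, minus strand), Nkd1 (88521354 to 88594884, plus strand), Snx20 (88626563 to 88636128, minus strand), Nod2 (88647315 to 88688474, plus strand), Cyld (88697028 to 88751945, plus strand) and Sall1 (89027235 to 89044162, minus strand). Snx20 and Nod2 were transcribed away from each other, with 11186 bp between the genes. Nod2 ended 8553 bp before the start of Cyld, on the same strand. The starts of Nkd1, Brd7 and Sall1 were at -114.8, -273.9 and 408.0 kb from that of Snx20, counted towards higher coordinates. None of the 6 genes shared exon bases with another annotated gene, and none was at 0 in any library.

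The edit itself is on chromosome 9. One Zfp266 sgRNA, marked in the study's plasmid list, matched the coding sequence of Zfp266 in exon 6 of 9 of the transcript Zfp266-201, at chr9:20505091-20505109 on the minus strand of GRCm38. The RNA-seq methods do not name the sgRNA used, so that it made the KO of these libraries is not certain. It is shown as a site in the gene that such an sgRNA targets, with the AGG motif next to the site in capitals.
Zfp266 sgRNA site: cagaagaatctataccgagAGG

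The promoters of Nod2 and Cyld are shown because these 2 adjacent genes moved in the same direction, with different sizes. Each runs from 250 bases before to 50 bases after the start that RefSeq gives (GRCm38.p6, plus strand), at chr8:88647097-88647396 for Nod2 and chr8:88696778-88697077 for Cyld. Capitals mark the letters ACAANGG (a SOX2-type motif) or GGGNGTG (a KLF4-type motif), searched on both strands together with ATGCAAA (an OCT4-type motif), since these factors were supplied by the cassette. The marked stretches did not overlap.
Nod2 promoter: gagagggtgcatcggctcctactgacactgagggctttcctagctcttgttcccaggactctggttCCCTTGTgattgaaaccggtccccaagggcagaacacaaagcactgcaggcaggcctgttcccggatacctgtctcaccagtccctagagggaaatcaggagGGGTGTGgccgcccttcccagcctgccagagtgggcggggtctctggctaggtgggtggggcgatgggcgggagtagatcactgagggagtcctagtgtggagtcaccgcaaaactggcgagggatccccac
Cyld promoter: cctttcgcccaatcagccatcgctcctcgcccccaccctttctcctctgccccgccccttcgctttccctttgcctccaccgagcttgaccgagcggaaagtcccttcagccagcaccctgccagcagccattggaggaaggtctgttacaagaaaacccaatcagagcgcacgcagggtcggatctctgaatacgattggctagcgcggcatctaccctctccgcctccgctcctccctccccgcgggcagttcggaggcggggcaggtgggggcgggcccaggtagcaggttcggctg

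The Nod2 window held 1 SOX2-type match, beginning at -184 from the start, and 1 KLF4-type match, beginning at -82, while the Cyld window held none of the 3 motifs. Of 32851 mouse promoter windows of this length, 13.6% held the SOX2-type letters, 29.2% the KLF4-type letters and 4.63% the OCT4-type letters. The Cyld window had 64.7% G or C and 22 CG pairs, against 61% and 9 in the Nod2 window. Of the 6 genes, 5 had a window in the RefSeq table. Snx20 did not. The Nkd1 window, at chr8:88527383-88527682, lay inside the GENCODE gene and not at the start given above, and held 1 KLF4-type match. The Brd7 window held none of the motifs. Sall1 had several windows. Those at chr8:89044113-89044412 and chr8:89042813-89043112 held 1 KLF4-type match each, and that at chr8:89043463-89043762 held none.

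Library totals ran from 19224103 to 39610939 reads, and 3 reads corresponded to 2.31 to 5.22 normalised counts, the values the authors divided by a size factor for each library. Zfp266 itself was not lower in KO in MEFs (2828 to 3096 normalised counts in WT, 3072 to 3293 in KO), and was lower in KO in iPS (log2FC -0.39, SE 0.07, DESeq2 FDR 9.95e-06). At D3 it was higher in KO (log2FC 0.32, SE 0.08, FDR 0.00883), a call lost with edgeR (FDR 0.0834), without KO replicate 2 (FDR 0.24) and without WT replicate 1 (FDR 0.175). Reads counted over the whole gene do not show a small edit, so this is no check of the genotype. The stage labels were checked against marker genes: 6 fibroblast markers summed to 277983 to 361812 normalised counts in MEFs and 122 to 163 in ESC, and 6 pluripotency markers to 19.7 to 30.8 and 111853 to 127635. One KO MEF library, replicate 3, stood apart from its group, and the iPS clones spread widely. The iPS WT replicate 1 and KO replicate 2 held the highest Cyld, Brd7 and Sall1 of their groups.

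Levels are described first in WT cells, per kilobase of merged exons so that genes can be compared. On D5 the level was 14.0 ± 2.60 normalised counts per kb for Snx20 and 18.2 ± 5.95 for Nod2 (SD, n = 3), which did not differ beyond their spread. Cyld had 22.6 ± 3.72, Sall1 59.4 ± 3.34, Brd7 346 ± 3.61 and Nkd1 2.82 ± 0.334. In MEFs the order was different. Brd7 led with 272 ± 4.16, followed by Nkd1 (111 ± 0.445), Cyld (74.3 ± 3.91), Sall1 (23.7 ± 1.01), Snx20 (7.47 ± 1.60) and Nod2 (2.29 ± 0.551).

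**Figure D1:**
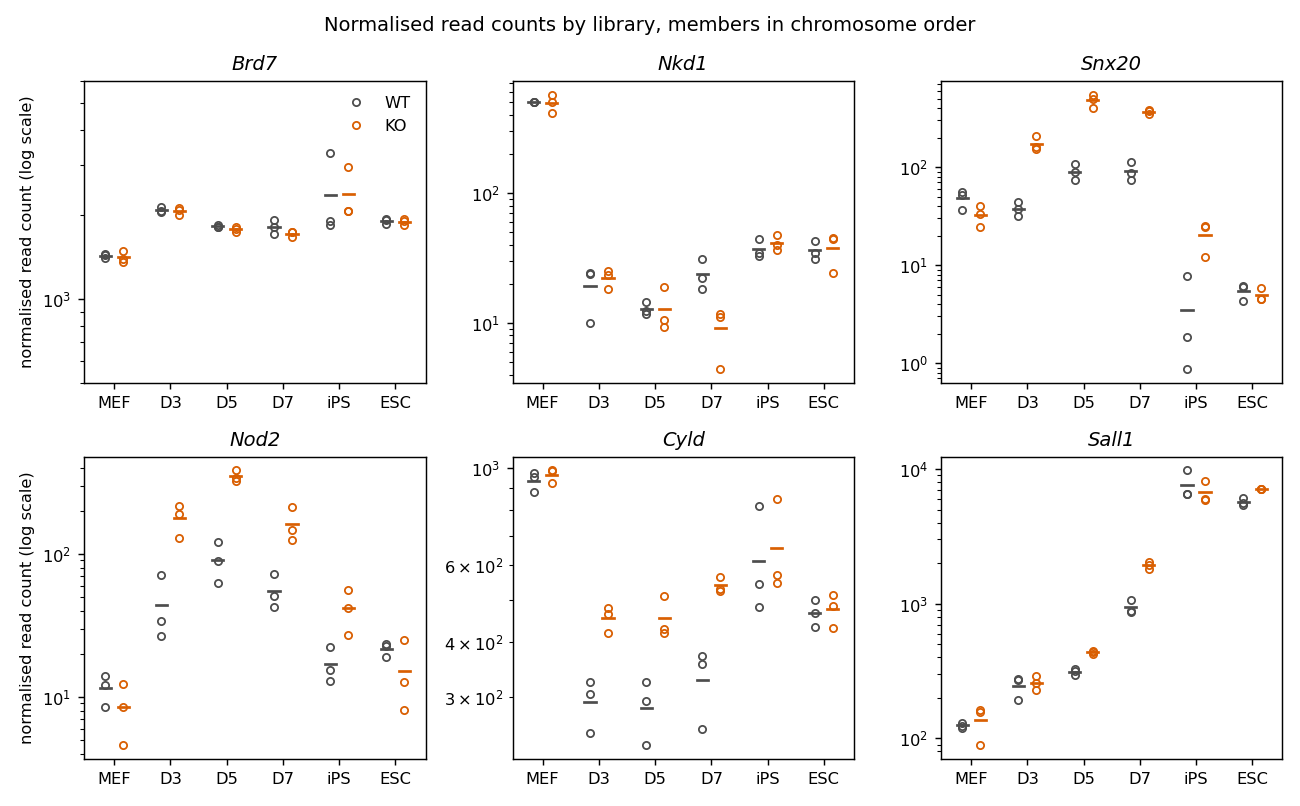
Normalised read count on a log scale for each of the 6 genes, in chromosome order, at each stage. Circles are libraries and bars are means of 3, grey for WT and orange for KO. Snx20 and Nod2 separate by genotype from D3 to iPS, Cyld from D3 to D7, and Brd7 at no stage. The pair was chosen on D3 and D5. KO libraries lie above WT libraries for 6.92% of all genes on D3, 14.4% on D5, 20.7% on D7 and 11.4% in iPS.

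The 6 genes took different courses as WT cells moved from fibroblast to pluripotent cell. Sall1 rose at D3 over MEFs (log2FC 0.97, SE 0.19, DESeq2 FDR 4.48e-07), at D7 over D5 (1.59, SE 0.17, FDR 2.88e-19) and in iPS over D7 (3.02, SE 0.16, FDR 2.22e-79). Nkd1 fell at once, from 504 ± 2.03 normalised counts in MEFs to 19.4 ± 8.10 on D3 (log2FC -4.69, SE 0.26, FDR 4.08e-71). Cyld fell from 935 ± 49.2 to 293 ± 39.8 over the same step (log2FC -1.67, SE 0.17, FDR 6.23e-21) and rose again in iPS over D7 (0.91, SE 0.18, FDR 5.07e-07). Brd7 moved least, with its largest WT step 0.54 (SE 0.14, FDR 0.000264) at D3 over MEFs.

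In WT cells Snx20 and Nod2 were highest in the middle of the course. The WT mean of Snx20 was 48.1 in MEFs, 37.7 on D3, 89.9 on D5 and 90.9 on D7, and that of Nod2 was 11.5, 43.8, 91.2 and 55.0. Both then fell in iPS against D7, with log2FC -4.69 for Snx20 (SE 0.46, DESeq2 FDR 1.68e-23) and -1.69 for Nod2 (SE 0.39, FDR 2.78e-05). ESC held less Snx20 than MEFs (log2FC -3.17, SE 0.42, FDR 7.45e-14), whereas the Nod2 difference of 0.95 (SE 0.47, FDR 0.0536) missed the threshold and passed with TMM size factors (FDR 0.0301) and with edgeR (FDR 0.0457). Of the 30 WT steps tested over the 6 genes, 17 passed. From iPS to ESC, Nkd1, Snx20 and Nod2 had a p-value but no FDR, so these steps could not pass. The share of all genes that passed was 70.9% from MEFs to D3, 25.1% from D3 to D5, 24.1% from D5 to D7, 73.5% from D7 to iPS, 3.2% from iPS to ESC and 79.3% between MEFs and ESC. The steps of Snx20 and Nod2 that touch D3 or D5 were not tested, since those libraries entered the choice of the pair.

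Without doxycycline, no gene of the locus was called between KO and WT fibroblasts. Snx20 had 36.5, 51.5 and 56.2 normalised counts in the WT MEF libraries and 33.3, 39.7 and 24.4 in KO, so the groups overlapped. Its log2FC was -0.59 (SE 0.27, unadjusted p 0.0306, DESeq2 FDR 0.581). Nod2 had 13.9, 12.1 and 8.49 in WT and 4.60, 12.2 and 8.47 in KO, close to the counting limit. Of the 4 neighbours, 0 were called by DESeq2 and 0 by edgeR, and 0 had an unadjusted p under 0.05, where 0.0428% of all genes were called. The 95% interval of the Cyld difference was -0.29 to 0.38, and leaving out the KO library that stood apart brought no neighbour past the threshold.

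On D3, Snx20 had 37.6, 32.0 and 43.6 normalised counts in WT and 162, 206 and 153 in KO. Nod2 had 26.6, 34.0 and 70.7 in WT and 129, 216 and 191 in KO. Every KO library of both genes was above every WT library, as for 6.92% of all genes. The log2FC of 2.20 and 2.03 were among the values for which the pair was chosen.

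Cyld, the next gene after Nod2, had 325, 248 and 305 normalised counts in WT on D3 and 465, 480 and 421 in KO. The groups did not overlap, as for 6.92% of all genes in that direction. The log2FC was 0.64 (SE 0.18) and the DESeq2 FDR 0.0582, which missed the threshold. It was called at FDR 0.0498 with the replicate number as a block and at 0.00021 when only the 6 D3 libraries were fitted, and not by edgeR (FDR 0.227). Neither Nkd1 (log2FC 0.19, SE 0.31), Brd7 (-0.01, SE 0.14) nor Sall1 (0.07, SE 0.17) was called. Thus DESeq2 called 0 of the 4 neighbours on D3 and edgeR 0, with 1 at an unadjusted p under 0.05, where 0.493% of all genes were called. On that day the 6 pluripotency markers summed to 343 to 498 normalised counts in WT and 337 to 562 in KO, with Dppa5a higher and Utf1 lower in KO and Dppa5a at 0 in all WT libraries. DESeq2 called 0 of the 6 fibroblast markers on D3. The part of these markers in the Cyld difference was not tested.

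On D5, Snx20 had 73.8, 88.8 and 107 normalised counts in WT and 402, 547 and 494 in KO, and Nod2 62.1, 89.8 and 122 in WT and 322, 339 and 383 in KO. Again every KO library of both genes was above every WT library, as for 14.4% of all genes. The log2FC was 2.42 for Snx20 and 1.93 for Nod2, values that entered the choice and are described and not tested.

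Cyld rose in KO on D5. Its WT libraries held 233, 325 and 294 normalised counts and its KO libraries 421, 511 and 429, with log2FC 0.68 (SE 0.18, DESeq2 FDR 0.00443), or 1.60-fold with a 95% interval of 1.26 to 2.03. The call was lost without KO replicate 2 (FDR 0.0691) or WT replicate 1 (FDR 0.0663). Sall1 had 318, 293 and 327 in WT and 423, 444 and 437 in KO. These groups did not overlap either, as for 14.4% of all genes in that direction, but its log2FC of 0.47 (SE 0.17, FDR 0.0598) missed the threshold, and passed when only the D5 libraries were fitted (FDR 0.00061). Nkd1 (-0.04, SE 0.37) and Brd7 (-0.04, SE 0.14) were not called. One of the 4 neighbours was thus called on D5, where 7.15% of all genes were.

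**Figure D2:**
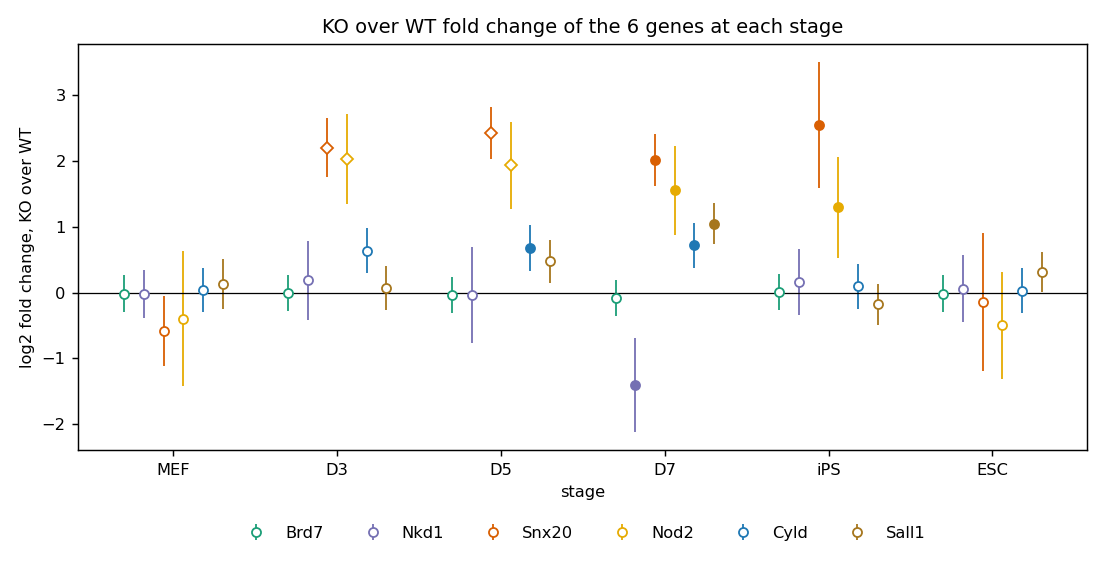
Log2 fold change, KO over WT, of the 6 genes at each stage with 95% intervals from the DESeq2 fit. Filled circles passed FDR 0.05, open circles did not, and open diamonds mark the values that chose Snx20 and Nod2. Cyld sits between 0.64 and 0.72 from D3 to D7 and near 0 at the other stages.

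On D7 the difference of the pair was seen in libraries that had no part in its choice. Snx20 had 73.0, 87.6 and 112 normalised counts in WT and 378, 347 and 381 in KO (log2FC 2.02, SE 0.20, DESeq2 FDR 5.48e-21). Nod2 had 50.7, 42.3 and 72.0 in WT and 125, 148 and 212 in KO (log2FC 1.56, SE 0.35, FDR 7.07e-05). All 6 KO values lay above the WT values of the same gene, as for 20.7% of all genes. D7 was also the stage at which most genes differed, 13.3% of them higher and 16.1% lower in KO.

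Of the 4 neighbours, 3 were called on D7, where 29.4% of all genes were, 2 higher and 1 lower. Cyld had 254, 357 and 372 normalised counts in WT and 524, 565 and 528 in KO (log2FC 0.72, SE 0.18, DESeq2 FDR 0.000366). Sall1 rose 2.06-fold, from 1063, 866 and 887 to 1941, 2050 and 1816 (log2FC 1.04, SE 0.16, FDR 2.06e-09). Both kept their call with each library left out in turn.

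Nkd1 went the other way. Its D7 libraries held 18.3, 22.2 and 30.9 normalised counts in WT and 11.0, 4.38 and 11.8 in KO, on 70 reads in all against 29. The groups did not overlap, as for 26.3% of all genes in that direction, and the log2FC was -1.40 (SE 0.37, DESeq2 FDR 0.000897). It was lost when only the 6 D7 libraries were fitted (FDR 0.0614). Brd7, with 1799, 1710 and 1908 in WT and 1728, 1666 and 1733 in KO, was not called (log2FC -0.08, SE 0.14, 95% interval -0.36 to 0.20).

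Marker levels moved with the D7 comparison. All 6 pluripotency markers rose in KO, with sums of 5022 to 8861 normalised counts in WT and 23545 to 31174 in KO. Of 6 fibroblast markers 3 fell (Col1a1, Prrx1 and Thy1), with sums of 17587 to 24756 in WT and 5515 to 15232 in KO. Of all genes, 13.3% were called higher and 16.1% lower on D7. On D5, where 7.15% of all genes were called, 5 of the 6 pluripotency markers rose. Their sums were 1215 to 1426 in WT and 2560 to 3760 in KO. DESeq2 called 0 of the 6 fibroblast markers on that day. None of these 12 genes was at 0 throughout either group on D5 or D7. Their part in the differences at this locus was not tested, and in bulk RNA a change in the share of cells cannot be told apart from a change in RNA per cell.

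Snx20 and Nod2 are best known from blood cells, so 11 blood and macrophage markers were followed beside them. On D3 they summed to 308 to 404 normalised counts in WT and 266 to 434 in KO, and on D5 to 353 to 436 and 423 to 488. DESeq2 called 0 of the 11 on D3, 1 lower on D5 (Cd14) and 1 higher on D7 (Laptm5), where 0.493%, 7.15% and 29.4% of all genes were called. The pan-leukocyte marker Ptprc had 4.85 to 11.9 in WT and 7.52 to 8.96 in KO on D3. Tyrobp was at 0 in all WT libraries on D3 and Adgre1 in all KO libraries on D5. On D7 the sums were 753 to 1202 in WT and 1225 to 1418 in KO. Laptm5 alone made up a mean of 324 of 920 in WT and 677 of 1336 in KO. The median log2FC of the 11 was -0.20 on D7, beside -0.04 over all genes. In iPS, where 16.3% of all genes were called, 1 of the 11 was, Spi1, which encodes a myeloid transcription factor, with 11.4 ± 10.5 in WT clones and 38.3 ± 15.7 in KO clones (log2FC 1.75, SE 0.51, FDR 0.00745). The iPS sums were 2589 to 3897 in WT and 2822 to 4112 in KO, with Adgre1, Tyrobp and Lyz2 at 0 in all 6 clones. Most of the iPS sum was Laptm5, with a mean of 2679 of 3084 in WT and 2993 of 3525 in KO. Ptprc had at most 0.861 there in WT and 0.998 in KO. The sums are thus no measure of blood cells. The part of these markers in the differences of Snx20 and Nod2 was not tested.

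Averaged over D3, D5 and D7, with 9 libraries a genotype, 2 of the 4 neighbours were called, both higher in KO. Cyld was 1.60-fold higher in KO (log2FC 0.68, SE 0.10, DESeq2 FDR 1.4e-09) and Sall1 1.45-fold higher (0.53, SE 0.10, FDR 7.63e-07). Nkd1 (-0.42, SE 0.20, FDR 0.12) and Brd7 (-0.04, SE 0.08, FDR 0.772) were not called. The share of all genes called in this average was 25%. The difference between the KO effects on Cyld was 0.04 (SE 0.25, FDR 1.0) from D3 to D5 and 0.04 (SE 0.25, FDR 0.962) from D5 to D7. Those of Sall1 were larger but not called, 0.40 (SE 0.24, FDR 1.0) and 0.57 (SE 0.23, FDR 0.129).

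In iPS clones the pair still differed, at far lower levels. Snx20 had 7.77, 0.861 and 1.86 normalised counts in the WT clones, 12 reads in all, and 25.0, 24.3 and 12.1 in the KO clones, 65 reads in all (log2FC 2.55, SE 0.49, DESeq2 FDR 1.06e-05). Nod2 had 22.5, 15.5 and 13.0 in WT and 41.9, 55.6 and 27.3 in KO (log2FC 1.29, SE 0.39, FDR 0.0102). KO clones lay above WT clones for both genes, as for 11.4% of all genes. When only the 6 iPS libraries were fitted neither was called (FDR 0.0829 and 0.134), and the Nod2 call was lost without KO replicate 2, WT replicate 2 or WT replicate 3 (FDR 0.0532 to 0.0854).

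None of the neighbours was called in iPS. Cyld had 820, 543 and 481 normalised counts in WT clones and 546, 851 and 570 in KO clones, with a log2FC of 0.09 (SE 0.17, DESeq2 FDR 0.793). Sall1 was at -0.18 (SE 0.16), Nkd1 at 0.16 (SE 0.25) and Brd7 at 0.01 (SE 0.14). DESeq2 and edgeR each called 0 of 4, with 0 at an unadjusted p under 0.05, where 16.3% of all genes were called. Brd7 was called at 0.35 (FDR 0.0036) without WT replicate 1.

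In ESC no gene of the locus was called. Snx20 held 6.02, 6.07 and 4.34 normalised counts in WT and 4.49, 5.84 and 4.49 in KO, near the limit of 3 reads, so a difference was hardly detectable (95% interval of log2FC -1.19 to 0.90). Nod2 had 19.1, 23.3 and 22.6 in WT and 8.08, 12.7 and 25.1 in KO (log2FC -0.50, SE 0.42, DESeq2 FDR 0.507). Of the neighbours 0 were called by DESeq2 and 0 by edgeR, where 10.1% of all genes were called. Sall1 alone had an unadjusted p under 0.05, with 5454, 5642 and 6107 in WT and 7081, 7156 and 7128 in KO. Its groups did not overlap, as for 16.4% of all genes, with log2FC 0.31 (SE 0.16, FDR 0.205), and it was called when only the ESC libraries were fitted (FDR 0.000264).

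Differences of the KO effect between neighbouring stages were tested where no chosen value entered, and 3 of 24 passed. Between D7 and iPS the effect on Sall1 changed by -1.22 (SE 0.22, DESeq2 FDR 1.7e-06) on the log2 scale and that on Nkd1 by 1.57 (SE 0.45, FDR 0.00392), in a comparison where 21.9% of all genes passed. The change of the Cyld effect, -0.62 (SE 0.25, FDR 0.0504), missed the threshold and passed with edgeR (FDR 0.0455) and TMM size factors (FDR 0.0322). Between iPS and ESC the effect on Snx20 changed by -2.69 (SE 0.72, FDR 0.0222), where 1.47% of all genes passed, and edgeR did not call it (FDR 0.092). That on Nod2 changed by -1.79 (SE 0.57, FDR 0.0816). Of the neighbours, none passed from MEFs to D3, D3 to D5 or D5 to D7, where 0.112%, 0.064% and 5.84% of all genes passed. Comparisons that meet at a stage share its libraries.

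**Figure D3:**
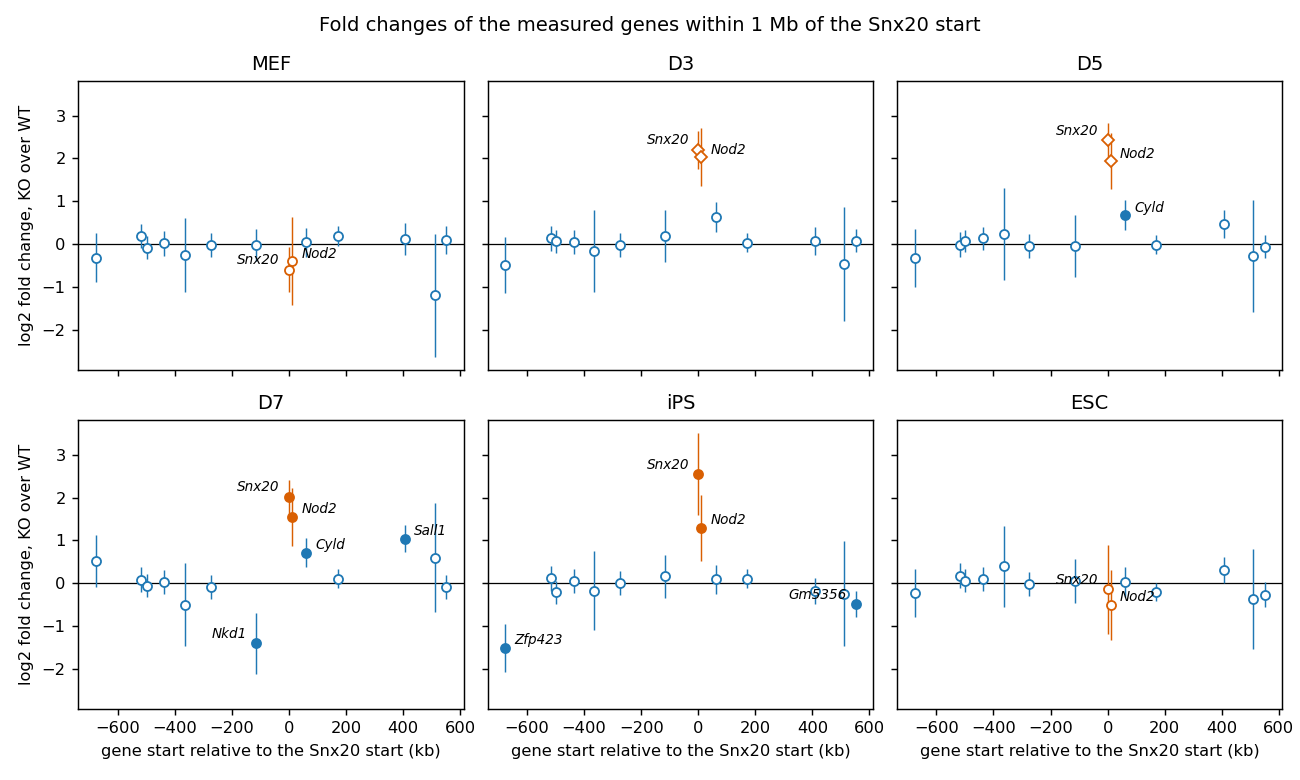
Log2 fold change, KO over WT, against the distance of each gene's start from that of Snx20 in kb, for the measured genes within 1 Mb, at each stage. Bars are 95% intervals, filled symbols passed FDR 0.05, orange marks Snx20 and Nod2, and diamonds mark the values that chose them. On D5 Cyld is the only filled neighbour, and on D7 Cyld, Sall1 and Nkd1 are.

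The wider surroundings were read in the same fit. Within 1 Mb of the Snx20 start the annotation had 26 genes, of which 14 were in the count table, 12 besides the pair. Among these 12, DESeq2 called 0 in MEFs, 0 on D3, 1 on D5, 3 on D7, 2 in iPS and 0 in ESC, and edgeR called the same numbers. The shares of all genes called at these stages were 0.0428%, 0.493%, 7.15%, 29.4%, 16.3% and 10.1%. On D3, on D5 and in ESC 11 of the 12 had an FDR, and Gm6625 had none. At an unadjusted p under 0.05 there were 0 in MEFs, 1 on D3 and 1 in ESC. From MEFs to D7 all of the called genes were Cyld, Sall1 or Nkd1.

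The other 8 genes of the window were not called from MEFs to D7. Heatr3, Tent4b, Adcy7, Cnep1r1, Zfp423, Rps6-ps2, Gm5356 and Gm6625 had log2FC from -0.48 to 0.14 on D3. Both window calls in iPS lay far from the pair and pointed down. Zfp423, which encodes a zinc-finger transcription factor and starts at -676.5 kb, had 1222, 2162 and 1170 normalised counts in WT clones and 431, 741 and 426 in KO clones (log2FC -1.51, SE 0.29, DESeq2 FDR 1.06e-05). Gm5356, a processed pseudogene at 551.4 kb whose reads may be shared with its parent gene, had a log2FC of -0.48 (SE 0.15, FDR 0.0133), lost without KO replicate 1 (FDR 0.162), without WT replicate 2 (FDR 0.138) or when only the iPS libraries were fitted (FDR 0.383).

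Snx20 and Nod2 varied together over the 36 libraries, though neither was the other's closest match. Pearson's r of their log2(normalised count + 1) was 0.78, which placed Nod2 at rank 1134 for Snx20 and Snx20 at rank 480 for Nod2 among 16669 genes with a mean of at least 20 normalised counts. The genes most like Snx20 were Dennd4c, Eps15, Map3k5, Arfgef1 and Cyfip1, with r from 0.91 to 0.92. Those most like Nod2 were Eif4e1b (r = 0.91), Flad1, B3gnt3, Cdc14a and Def8 (r = 0.88 each). Of each 5, 3 stayed among the first 5 by Spearman's rho. The neighbours had r with Snx20 of -0.16 for Cyld, -0.21 for Brd7, -0.32 for Nkd1 and -0.56 for Sall1. The D3 and D5 libraries that chose the pair are among the 36, so the r of the pair is not independent of its choice. All genes share these libraries and their stages, so the values are descriptions.

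**Figure D4:**
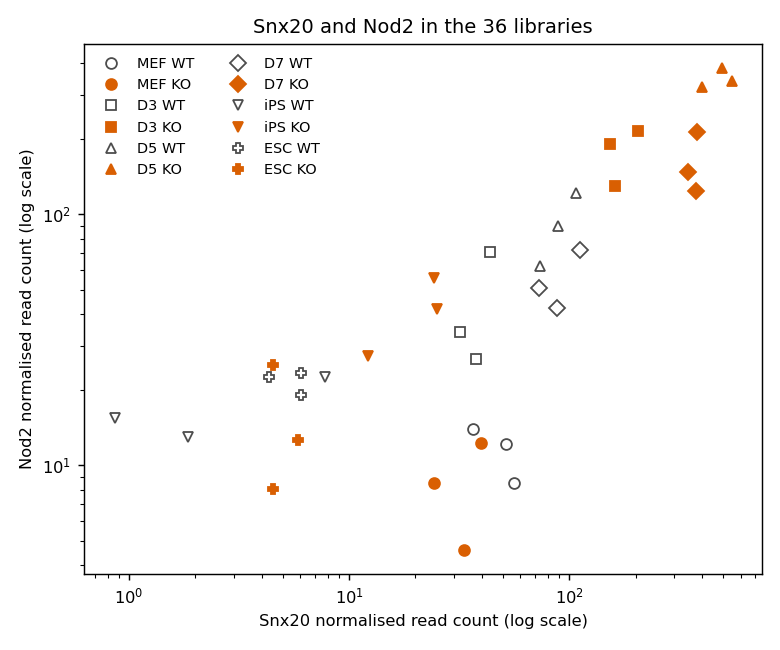
Nod2 against Snx20 normalised read count in each of the 36 libraries, both on log scales, with symbols for the stage and filled orange for KO. The KO libraries of D3, D5 and D7 lie beyond every WT library on both axes, and D3 and D5 are the days that chose the pair. The MEF libraries hold Snx20 with little Nod2.

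In MEFs Snx20 was present with little Nod2, and in ESC Nod2 was present with little Snx20. WT MEFs held 7.47 ± 1.60 normalised counts per kb of Snx20 and 2.29 ± 0.551 of Nod2, while WT ESC held 0.851 ± 0.153 and 4.32 ± 0.449 (SD, n = 3). In KO libraries on D5 the levels per kb were 74.7 ± 11.3 and 69.4 ± 6.26, which overlapped.

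Of 28 listed genes of NOD2 signalling, DESeq2 called 1 higher and 0 lower on D3, the same numbers on D5, and 3 higher and 3 lower on D7, beside 0.493%, 7.15% and 29.4% of all genes called. The median log2FC of the list was 0.01, 0.03 and -0.14 on those days, beside 0, -0.01 and -0.04 over all genes. The gene called on D3 and D5 was Xiap, which encodes a ubiquitin ligase that acts on RIPK2. It rose from 962 ± 141 to 1386 ± 149 normalised counts on D3 (log2FC 0.53, SE 0.11, FDR 0.00208), and without KO replicate 1 or WT replicate 3 none of the 28 was called on D3. It was higher on D7 too (0.83, SE 0.11, FDR 7.12e-12). Ripk2 itself was lower in KO on D7 (log2FC -0.36, SE 0.14, FDR 0.0296). Nod1, the paralogue of Nod2, was not called from D3 to D7 and was lower in KO in iPS (-1.12, SE 0.28, FDR 0.00138) and in ESC (-0.85, SE 0.28, FDR 0.0297), opposite in sign to Nod2 in iPS.

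Of 29 other sorting nexins, 0 were called by DESeq2 on D3, 1 higher and 1 lower on D5, and 6 higher and 4 lower on D7, where 0.493%, 7.15% and 29.4% of all genes were called. The list median was 0 on D7, and the 10 calls of that day became 5 without WT replicate 1. Snx30 rose on D5 (log2FC 0.41, SE 0.08, FDR 8.86e-06) and Snx8 fell (-0.47, SE 0.10, FDR 6.6e-05). Snx21, the closest relative of Snx20, was not called on D3 (-0.14, SE 0.20), D5 (-0.26, SE 0.20) or D7 (0.42, SE 0.18, FDR 0.0605).

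Paralogues and partners of the 6 genes were 12 in number, with 0 called by DESeq2 on D3, 3 higher and 0 lower on D5, and 2 higher and 2 lower on D7, where 0.493%, 7.15% and 29.4% of all genes were called. The 3 calls on D5 became 1 without any single KO library, WT replicate 2 or WT replicate 3. Sall4, a relative and partner of Sall1, rose from 1196 ± 206 to 2348 ± 331 normalised counts on D5 (log2FC 0.97, SE 0.13, DESeq2 FDR 2.06e-10), a stage at which Sall1 missed the threshold, and by 1.02 (SE 0.13, FDR 1e-12) on D7. Nkd2, the paralogue of Nkd1, fell on D7 as Nkd1 did, from 900 ± 70.1 to 383 ± 85.1 (log2FC -1.23, SE 0.14, FDR 3.76e-16). Nkd2 lies outside the window. Nod1 stands in both this list and the NOD2 list.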

How the data were processed

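Per the labels and the study's methods, poly(A) RNA was made into stranded libraries, adapters were trimmed with Cutadapt, reads were mapped to GRCm38 with STAR and counted per gene with Rsubread. The annotation release and strand setting of the counting are not given in the sources used here. The authors deposited raw read counts per gene and normalised counts, a signal of counts divided by a DESeq2 size factor for each library. They also deposited batch-corrected log values and tables of fold changes and p-values, which were not used, apart from the gene names in 1 of them.

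Counts of all 21442 genes were fitted with DESeq2 1.42.0 (R 4.3.3) as 1 factor of 12 groups over 36 libraries, with median-ratio size factors, Wald tests, independent filtering and no shrinkage. The single factor and the Wald test follow the study. A gene was called at FDR under 0.05 (Benjamini-Hochberg over all genes with a value). Intervals are 95%. The scripts were tested on simulated counts. Alternatives were edgeR 4.0.16 (quasi-likelihood), TMM size factors, no independent filtering, at least 10 reads in 3 libraries, only the compared groups, a replicate block, each library left out, and a window of 500 kb.

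The members, lists and tests were chosen with earlier results of these data known. The named genes are the 6 members, Zfp266, called window genes, the 5 most like Snx20 and Nod2, the paralogues and Ripk2, and the called list genes with the lowest FDR on D3, D5 and D7. Genes named to spell out a short count were picked after their values were seen. Libraries of 1 group differed by 3.16 times the counting noise or more, so none was a duplicate. The study's methods mention library preparation dates, which were not used here. Same-numbered KO and WT libraries deviated together on D3 (r = 0.081 to 0.358 over genes), D5 (0.095 to 0.212) and D7 (0.114 to 0.301). In MEFs r was -0.044 to 0.011, in iPS -0.118 to 0.245 and in ESC -0.026 to 0.007. In iPS, over 13285 genes, WT replicate 1 deviated with KO replicate 2 (r = 0.190) and WT replicate 2 with KO replicate 1 (0.186). The replicate block does not take these as pairs. The labels do not say that the numbers pair the samples at any stage. Counting floors cover counting error only. Promoters come from RefSeq (GRCm38.p6).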

Additional observations from a re-analysis of the deposited data

Results flagged for a closer look

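The KO effects on 3 genes differed between stages by the interaction test of the DESeq2 fit. That on Nkd1 was 1.57 higher (log2) in iPS than on D7, where KO libraries held 29 reads in all. That on Sall1 was -1.22, lower in iPS than on D7. That on Snx20 was -2.69, lower in ESC than in iPS, and this call was lost with edgeR (FDR 0.092). It rested on 12 Snx20 reads in all in iPS WT, 65 in iPS KO, 17 in ESC WT and 16 in ESC KO. The iPS effect in it was not called when DESeq2 was fitted to the iPS libraries alone (FDR 0.0829).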

How the results depend on the processing

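Of 1170 values of the 6 genes, the window genes and Zfp266 under other settings, none changed direction while called, 14 lost and 7 gained a call. Of 264 values of WT steps and stage differences, 3 lost and 4 gained a call. Neighbours called on D3 rose from 0 to 1 (Cyld) with only the compared groups and with the replicate block, and so did the window count. On D5 the count of 1, for neighbours and window alike, became 2 with only the compared groups (Cyld and Sall1) and ranged from 0 to 1 with a library left out. In iPS the neighbour count of 0 ranged from 0 to 1 with a library left out. The iPS window count of 2 became 0 within 500 kb, 1 (Zfp423) with only the compared groups, and 1 to 3 with a library left out. In ESC both counts rose from 0 to 1 (Sall1) with only the compared groups. By Spearman's rho, 3 of the 5 genes most like Snx20 and 3 of those most like Nod2 stayed. With a library left out, counts of neighbours on D7 stayed at 3 and those of the window ran from 3 to 4. The replicate block, which takes same-numbered libraries as pairs, changed no other call of the 6 genes. Whether the numbers pair the samples is not given by the labels. Why these values moved was not tested. Depth limits Snx20 in iPS WT and ESC, Nod2 in MEFs and Nkd1 from D3 to D7.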
